A study of Homo sapiens with 2 samples.

Results

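The metallothionein genes MT1E, MT1F, MT1G, MT1H, MT1M, MT1X and MT2A were examined on 2 expression arrays of HCT116, a cell line established from a human colorectal carcinoma. Every probe set whose platform annotation lists one of these 7 symbols was taken, which gave 11 of the 54675 probe sets in the deposited table. None of the 11 carried several symbols. One array came from cells transfected with siRNAs against both JMJD1A (KDM3A) and JMJD1B (KDM3B), and the other from cells given a control siRNA. Both cultures were grown in medium with 10% FBS and total RNA was taken 2 days after transfection, per the labels. Each group held 1 array, so there was no replicate error and no test, and every difference below is one between 2 single samples on 2 arrays. The sources used here do not give the siRNA sequences or their number per target, and effects other than on the targets were not tested.

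Metallothioneins are small cysteine-rich proteins of the cytosol that bind zinc, copper and cadmium and buffer the free zinc of the cell. Zinc activates the transcription factor MTF1, which binds metal response elements in the promoters of these genes, and glucocorticoids, oxidative stress and hypoxia also induce them. The MT1 genes and MT2A lie in a cluster on chromosome 16 and code for nearly identical proteins. KDM3A and KDM3B remove methyl groups from lysine 9 of histone H3. The comparison asks whether metallothionein transcripts differed after siRNAs against both enzymes.

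The 9 bright metallothionein probe sets all had a higher signal after the JMJD1A/JMJD1B siRNAs than after the control siRNA, by 1.20-fold to 1.92-fold, below 2-fold in each case. Their median log2 ratio, JMJD1A/JMJD1B siRNA over control siRNA, was 0.54, or 1.45-fold. Probe sets were called measured where the mean log2 signal of both arrays was at or above its median over non-control probe sets, which corresponds to a signal of 50.4. By this filter 9 of the 11 member probe sets, from 6 of the 7 genes, were measured. None of the 9 was 2-fold higher or 2-fold lower. Across 27307 measured probe sets, 8.89% were higher by that much and 10.4% lower. The median log2 ratio of all measured probe sets was 0.00, and 50.0% of them lay above 0.

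**Figure D1:**
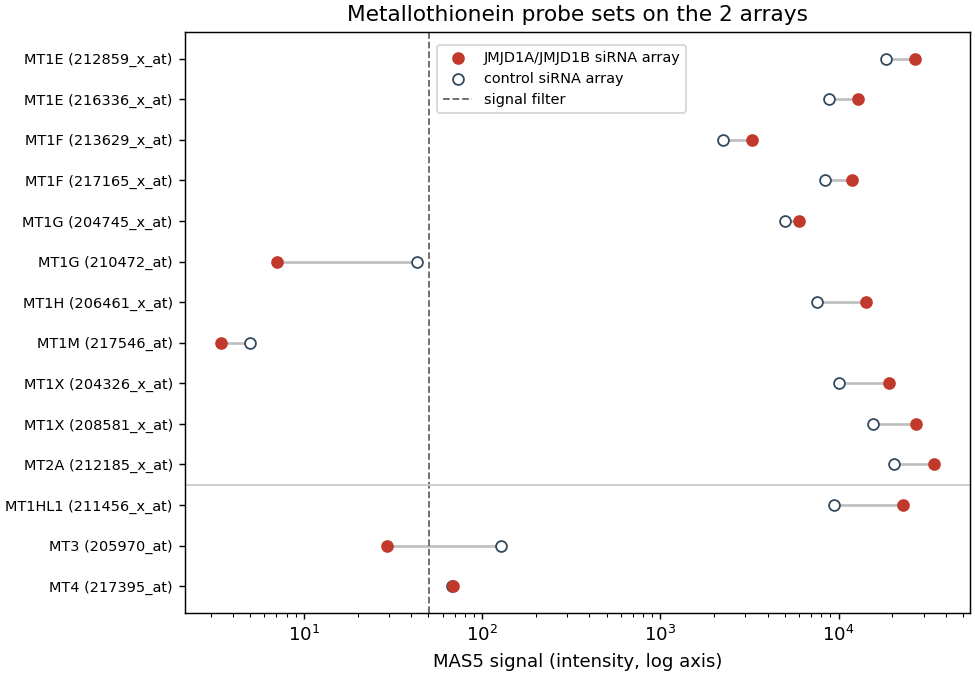
MAS5 signal of each metallothionein probe set on a log axis, with filled points for the JMJD1A/JMJD1B siRNA array, open points for the control siRNA array and a dashed line at the signal filter of 50.4. The 9 member probe sets right of the line all read higher on the JMJD1A/JMJD1B siRNA array, and the 2 member probe sets left of it read lower. The 3 rows under the horizontal line are MT1HL1, MT3 and MT4.

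The larger differences were those of MT1X, MT1H and MT2A. MT1X had 2 probe sets. The one built on the MT1X reference transcript, 208581_x_at, read 27139 on the JMJD1A/JMJD1B siRNA array and 15548 on the control siRNA array, a log2 ratio of 0.80. The other, 204326_x_at, read 19228 on the JMJD1A/JMJD1B siRNA array and 10035 on the control siRNA array, a log2 ratio of 0.94. Its annotation names MT1X, but the transcript accession it was built on belongs to MT1L, a transcribed pseudogene of the same cluster, in the RefSeq gene table. Which transcript this probe set reports was not tested. MT1H, a further MT1 isoform gene, read 14196 on the JMJD1A/JMJD1B siRNA array and 7615 on the control siRNA array, a log2 ratio of 0.90. MT2A, the gene of metallothionein-2, read 34318 on the JMJD1A/JMJD1B siRNA array and 20499 on the control siRNA array, a log2 ratio of 0.74. These 4 probe sets were the only measured member probe sets at least 1.5-fold higher. That threshold was passed by 21.0% of all measured probe sets.

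The differences of MT1E, MT1F and MT1G were smaller. MT1E read 26764 on the JMJD1A/JMJD1B siRNA array and 18488 on the control siRNA array by its brighter probe set, 212859_x_at. Its second probe set, 216336_x_at, read 12793 on the JMJD1A/JMJD1B siRNA array and 8889.7 on the control siRNA array. Both MT1E probe sets had a log2 ratio of 0.53. MT1F read 11898 on the JMJD1A/JMJD1B siRNA array and 8354 on the control siRNA array by 217165_x_at, a log2 ratio of 0.51. The dimmer MT1F probe set, 213629_x_at, read 3277 on the JMJD1A/JMJD1B siRNA array and 2259 on the control siRNA array, a log2 ratio of 0.54. MT1F thus stood level with MT1E by all 4 probe sets. MT1G had the smallest difference of the measured genes, with 6026 on the JMJD1A/JMJD1B siRNA array and 5008 on the control siRNA array by 204745_x_at, a log2 ratio of 0.27.

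The member probe sets under the filter both gave a lower signal with the JMJD1A/JMJD1B siRNAs. A second MT1G probe set, 210472_at, read 7.02 on the JMJD1A/JMJD1B siRNA array and 43.1 on the control siRNA array. The MT1M probe set, 217546_at, read 3.43 on the JMJD1A/JMJD1B siRNA array and 4.97 on the control siRNA array. All 4 signals lie under the filter of 50.4, so no fold is given, and MT1M had no measured probe set. The MT1G probe sets therefore gave a bright signal by one and a signal under the filter on both arrays by the other.

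Where a metallothionein gene had 2 measured probe sets, these lay close together. MT1G is left out here, since its second probe set lay under the filter. The log2 ratios of both probe sets differed by 0.01 for MT1E, 0.03 for MT1F and 0.13 for MT1X. These pairs rest on the annotated symbol. The MT1X probe set 204326_x_at was built on an MT1L transcript, and the annotation names no transcript for 216336_x_at of MT1E. The usual scatter of one probe set's log2 ratio around its gene, estimated as an SD from the 6192 genes that had several measured probe sets, was 0.54. The SD over the 9 measured member probe sets was 0.22, a smaller value than the usual spread between probe sets of one gene. The SDs are not matched, since that of 0.54 covers genes of any measured signal. The 9 member probe sets are bright and may share transcripts. Of the 9 log2 ratios, 5 exceeded 0.54, if narrowly for one MT1F probe set. These figures describe how probes behaved on 2 arrays, and give no spread between cultures.

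All 9 measured member probe sets have names ending in _x_at, the array maker's mark for probe sets that may hybridize to other transcripts. By comparison 9.40% of all measured probe sets carry this mark. Both member probe sets without it were the ones under the filter. The transcripts of this family are nearly identical in sequence, so the 9 signals cannot be taken as 9 separate measurements of 6 genes, and how far each reports its own gene was not tested.

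The remaining family members on the array went different ways. MT1HL1, an MT1-like gene outside the cluster, read 23063 on the JMJD1A/JMJD1B siRNA array and 9461 on the control siRNA array by its one probe set, also an _x_at set. That is 2.44-fold higher, a log2 ratio of 1.29, and of the 9 member probe sets and the 3 described here it alone was higher by 2-fold. It fell under 2-fold after loess, at 0.99, after quantile normalization, at 0.97, and with the arrays level on the hybridization controls, at 0.67. With the arrays level on the median probe set it remained above 2-fold, at 1.2. MT3, a metallothionein best known from brain, read 29.2 on the JMJD1A/JMJD1B siRNA array and 127 on the control siRNA array. Its signal on the JMJD1A/JMJD1B siRNA array lies under the filter, so against the filter it was at least 2.525-fold lower, taking the brighter signal as exact. MT4, known from stratified squamous epithelium, read 68.6 on the JMJD1A/JMJD1B siRNA array and 67.6 on the control siRNA array, a log2 ratio of 0.02. The other 10 of 13 listed metallothionein genes and pseudogenes, MT1A and MT1B among them, had no probe set with their symbol alone and were not analysed here.

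The metallothionein probe sets were bright, and bright probe sets in general read higher on the JMJD1A/JMJD1B siRNA array. Between 86.4% and 99.1% of all measured probe sets had a lower mean signal than the 9 member probe sets, as a description of signal and not of transcript amount. Of the 3724 probe sets at least as bright as the dimmest of the 9, 62.1% had a log2 ratio above 0, with a median of 0.19 and quartiles at -0.26 and 0.61. A 2-fold higher signal was reached by 0 of 9 member probe sets and 8.24% of this bright class, and a 1.5-fold higher one by 4 of 9 and 26.5%. All 9 lay above the class median. With measured probe sets divided by signal into 40 bins of nearly equal size, the brightest bin had a median log2 ratio of 0.53. It held 4 member probe sets, those of MT2A and MT1X and the brighter one of MT1E, and these had log2 ratios between 0.53 and 0.94. Loess subtracts a smoothed trend of log2 ratio with signal. After it all 9 stayed above 0, between 0.15 and 0.67, with a median of 0.34. For bright probe sets loess took away less than the median of the brightest bin. The brighter MT1E probe set, level with that median at 0.53, still stood at 0.16 after loess. Values above 0 after loess are therefore not values matched for signal.

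**Figure D2:**
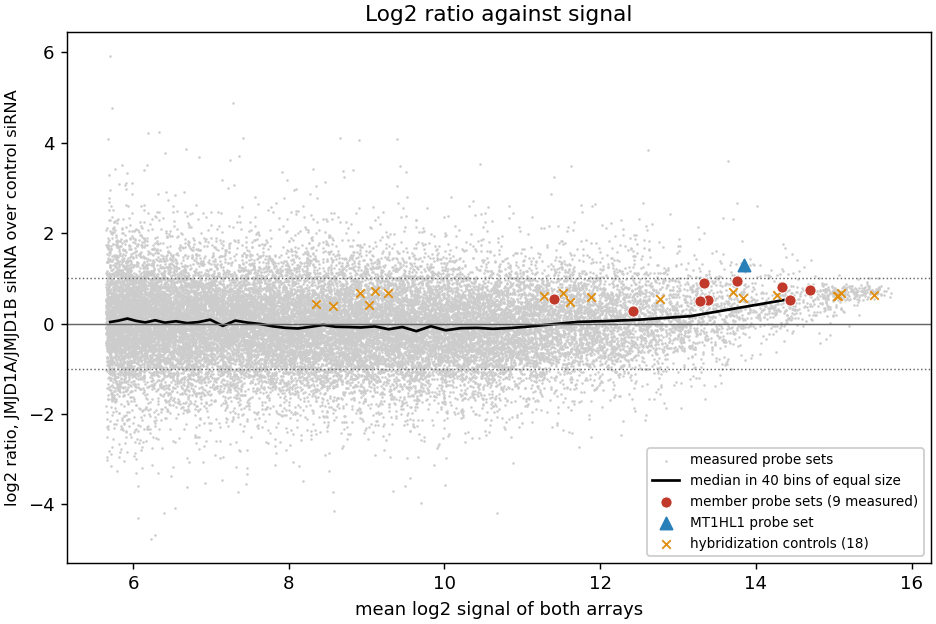
Log2 ratio of JMJD1A/JMJD1B siRNA over control siRNA against the mean log2 signal of both arrays, for all measured probe sets in grey, with their median in 40 bins as a black line and dotted lines at 2-fold. The 9 member probe sets (red) lie between 0.27 and 0.94 in the bright range, where the black line climbs to 0.53 and the 18 hybridization controls (crosses) lie between 0.40 and 0.71.

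The scale of the arrays decides the direction of several of these differences. Bacterial and phage transcripts are added to each sample in equal amounts in the array maker's procedure, and all 18 probe sets for these hybridization controls had a higher signal in the JMJD1A/JMJD1B siRNA sample. Their median log2 ratio was 0.61. Setting the arrays level on these controls would lower the log2 ratio of every probe set by 0.61 and put the median of all measured probe sets at -0.61. On that scale the metallothionein median was -0.07, with MT1X at 0.19 and 0.33, MT1H at 0.29 and MT2A at 0.13, while both MT1E probe sets (-0.08 and -0.09), both MT1F probe sets (-0.10 and -0.07) and MT1G (-0.34) lay below 0. The GAPDH control probe sets had log2 ratios between 0.67 and 0.76 on the deposited scale and the ACTB control probe sets between 0.09 and 0.31. Levelling on the hybridization controls shifts every log2 ratio alike. By construction, then, the metallothionein median stood 0.54 above the median of all measured probe sets on either scale. That comparison is not matched for signal, and the bright class described above had a median of 0.19 on the deposited scale.

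**Figure D3:**
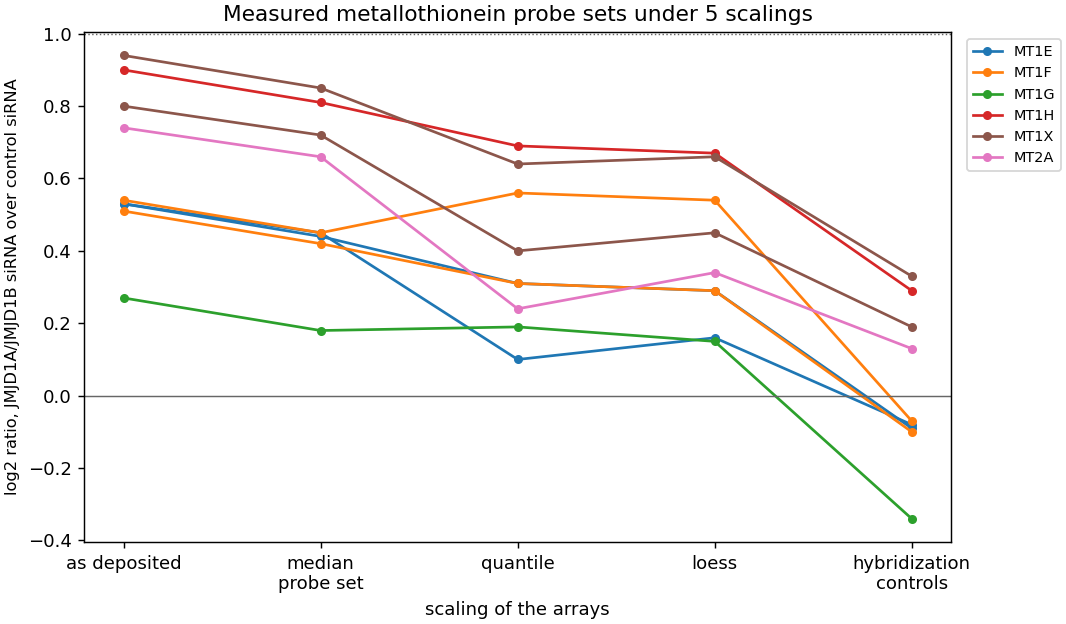
Log2 ratio of JMJD1A/JMJD1B siRNA over control siRNA for the 9 measured metallothionein probe sets, 1 line per probe set and 1 colour per gene, under the deposited scaling and 4 other scalings of the arrays. All 9 stay above 0 except on the scale of the hybridization controls, where 4 are above and 5 below, and none reaches the dotted line at 2-fold.

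The order of the genes also moved with the scaling. MT1H and the 204326_x_at probe set of MT1X led under each of the 5 scalings in the plot, and MT1G was last under the deposited scale, the median, loess and the hybridization controls. MT2A stood at 0.74 as deposited, at 0.34 after loess and at 0.24 after quantile normalization. The dimmer MT1F probe set stood at 0.54 as deposited and at 0.56 after quantile normalization, so that its place relative to MT2A changed. Under quantile normalization the brighter MT1E probe set was lowest, at 0.10.

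Promoter sequences from RefSeq (GRCh38.p14) are shown for MT1H, MT1X and MT2A, the 3 members in the promoter table used here, because metal induction of these genes runs through their promoters. Those of MT1E, MT1F, MT1G and MT1M were not analysed here. The sequences run 5′ to 3′ over the 250 bases before the annotated start, all on the plus strand, with chr16:56669564-56669813 for MT1H, chr16:56682220-56682469 for MT1X and chr16:56608334-56608583 for MT2A. Capitals mark the core of the metal response element, the letters TGCACNC or TGCGCNC on either strand.
MT1H: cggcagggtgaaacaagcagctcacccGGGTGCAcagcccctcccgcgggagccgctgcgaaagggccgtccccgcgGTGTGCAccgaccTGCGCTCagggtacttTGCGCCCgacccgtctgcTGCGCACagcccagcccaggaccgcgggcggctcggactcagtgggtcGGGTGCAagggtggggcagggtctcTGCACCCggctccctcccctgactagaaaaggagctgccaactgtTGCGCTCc
MT1X: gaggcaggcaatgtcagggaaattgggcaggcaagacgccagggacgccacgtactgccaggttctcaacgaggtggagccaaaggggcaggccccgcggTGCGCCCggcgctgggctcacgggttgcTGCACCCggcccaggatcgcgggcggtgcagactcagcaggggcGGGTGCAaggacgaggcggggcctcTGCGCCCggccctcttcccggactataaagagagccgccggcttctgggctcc
MT2A: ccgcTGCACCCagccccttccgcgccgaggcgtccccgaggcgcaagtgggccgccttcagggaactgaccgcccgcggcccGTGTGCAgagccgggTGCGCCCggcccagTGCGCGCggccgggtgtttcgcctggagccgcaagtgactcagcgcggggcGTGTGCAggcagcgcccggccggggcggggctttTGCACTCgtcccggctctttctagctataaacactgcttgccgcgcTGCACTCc
The window held 8 matches for MT1H, 4 for MT1X and 7 for MT2A, with overlapping matches counted. Of 35116 RefSeq promoters read over the same 250 bases, 24.8% held at least 1 match. As many matches as MT1H were held by 0.0171% of promoters, as many as MT2A by 0.0313% and as many as MT1X by 0.37%, these promoters themselves included. On either strand, MT2A also held 1 AP-1 site, TGACTCA, against 4.20% of all promoters, while MT1H and MT1X held none. MT1X held 1 match to ACGTG, the core of the hypoxia response element, on the minus strand (CACGT as printed), against 18.5% of all promoters. Neither of these matches overlapped a metal response element core. A match is a description of the letters and not of binding, which was not measured here.

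The siRNA targets and the zinc sensor were then set beside the metallothioneins. KDM3B read 496 on the JMJD1A/JMJD1B siRNA array and 3031 on the control siRNA array by its brighter probe set, a log2 ratio of -2.61. KDM3A read 3323 on the JMJD1A/JMJD1B siRNA array and 3884 on the control siRNA array, a log2 ratio of -0.22 that is smaller than the probe-set SD of 0.54. Level on the hybridization controls, KDM3A stood at -0.84, beyond that SD, and KDM3B at -3.22. That scaling lowers every log2 ratio by 0.61 and puts the median of all measured probe sets at -0.61. KDM3A thus passed the SD through a shift that all probe sets shared. Whether KDM3A was lowered, and how far, is not settled by its 1 measured probe set. MTF1, the activator of metallothionein genes, read 601 on the JMJD1A/JMJD1B siRNA array and 974 on the control siRNA array, a log2 ratio of -0.70, with its 3 measured probe sets between -0.70 and -0.29. Level on the hybridization controls, MTF1 stood at -1.31. SLC30A1, a plasma membrane zinc exporter that MTF1 also activates, read 1792 on the JMJD1A/JMJD1B siRNA array and 1565 on the control siRNA array, a log2 ratio of 0.20, and its other probe set stood at -0.15.

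Zinc handling genes lay on both sides of 0. Each gene was represented by its brightest measured probe set with a single symbol, and among the 12561 measured genes 8.91% were higher by 2-fold or more and 8.53% lower. Of 25 zinc handling genes, which are MTF1, the SLC30 family that moves zinc out of the cytosol and the SLC39 family that moves it in, 21 were measured. Of these 9 lay above 0 and 12 below, with a list median of -0.03. None was at least 2-fold higher and 2 were at least 2-fold lower. SLC30A9, a mitochondrial zinc transporter, read 1219 on the JMJD1A/JMJD1B siRNA array and 3215 on the control siRNA array, with its 2 probe sets at -1.40 and -1.83 on the log2 scale. SLC39A3, a zinc importer, read 407 on the JMJD1A/JMJD1B siRNA array and 1146 on the control siRNA array, a log2 ratio of -1.49, but its other measured probe set stood at 0.31. Of 13 copper handling genes 12 were measured, with 1 at least 2-fold higher, none at least 2-fold lower and a median of 0.04. The one was COMMD1, a regulator of copper export, with 4009 on the JMJD1A/JMJD1B siRNA array and 1743 on the control siRNA array (2.30-fold, log2 ratio 1.20). Level on the hybridization controls, COMMD1 stood at 0.59.

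Genes that heavy metals and protein damage induce alongside the metallothioneins were mostly lower. Of 14 listed genes 11 were measured, and none of these was at least 2-fold higher while 5 were at least 2-fold lower, with a median log2 ratio of -0.81. Among all measured genes 8.91% were higher and 8.53% lower by that much. GCLM, a subunit of the enzyme that starts glutathione synthesis, read 1065 on the JMJD1A/JMJD1B siRNA array and 3488 on the control siRNA array (log2 ratio -1.71). SLC7A11, the cystine importer, read 637 on the JMJD1A/JMJD1B siRNA array and 1990.0 on the control siRNA array (log2 ratio -1.64). The chaperone gene HSPH1 read 5691 on the JMJD1A/JMJD1B siRNA array and 14889 on the control siRNA array (log2 ratio -1.39), with its 3 measured probe sets between -2.44 and -1.39. HMOX1, the haem-degrading enzyme induced by metals, read 265 on the JMJD1A/JMJD1B siRNA array and 638 on the control siRNA array (log2 ratio -1.26). Glucocorticoid-responsive genes lay the other way. The 7 measured genes all lay above 0, with a median of 0.52, and 2 of them were at least 2-fold higher. Of all measured probe sets 50.0% lay above 0, and of all measured genes 8.91% were at least 2-fold higher. SGK1, a kinase that regulates ion transport, read 688 on the JMJD1A/JMJD1B siRNA array and 254 on the control siRNA array (2.71-fold). ERRFI1, a feedback inhibitor of the EGF receptor, read 43583 on the JMJD1A/JMJD1B siRNA array and 16470 on the control siRNA array (2.65-fold). Many signals besides glucocorticoids induce both genes. With the arrays level on the hybridization controls this list had a median of -0.09, with SGK1 at 0.83 and ERRFI1 at 0.79. SGK1 stood at 1.51 after loess and at 1.52 after quantile normalization. The very bright ERRFI1 stood at 1.0 after loess and, under 2-fold, at 0.91 after quantile normalization.

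**Figure D4:**
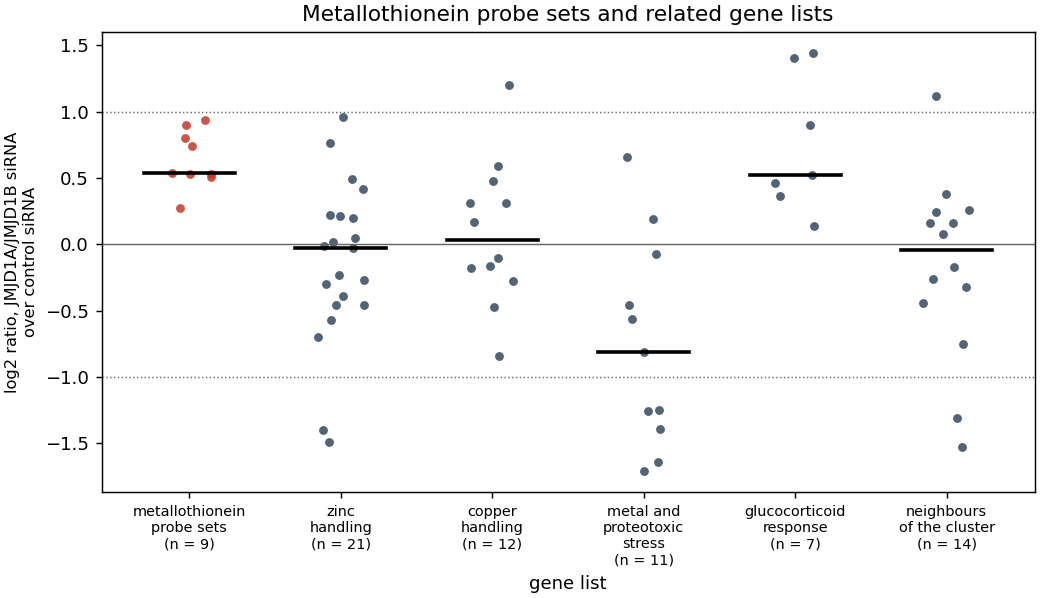
Log2 ratio of JMJD1A/JMJD1B siRNA over control siRNA for the 9 measured metallothionein probe sets (red) and for the measured genes of 5 lists, 1 point per probe set or gene, with a bar at each median and dotted lines at 2-fold. The metallothionein points all lie between 0.27 and 0.94, while the zinc, copper and neighbour lists straddle 0 and the metal and proteotoxic stress list has a median of -0.81.

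The genes next to the metallothionein cluster lay on both sides of 0. The 10 protein-coding genes on each side of the cluster in the RefSeq gene table were taken, and 14 of these 20 were measured. Of the 14, 7 lay above 0 and 7 below, with a median of -0.04. At least 2-fold higher was 1 gene, and 2 genes were lower by that much, against 8.91% and 8.53% of all measured genes. BBS2, a ciliary protein gene and the nearest neighbour on one side, read 2329 on the JMJD1A/JMJD1B siRNA array and 1072 on the control siRNA array (log2 ratio 1.12, and 0.51 with the arrays level on the hybridization controls). NUP93, a nuclear pore gene and the nearest on the other side, stood at -0.26. NUDT21, an mRNA 3′ end processing factor, read 3559 on the JMJD1A/JMJD1B siRNA array and 8804 on the control siRNA array (log2 ratio -1.31), but its 3 measured probe sets ran between -1.31 and 1.38. NLRC5, a regulator of MHC class I genes, read 41.2 on the JMJD1A/JMJD1B siRNA array and 119 on the control siRNA array, at least 2.36-fold lower against the filter.

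**Figure D5:**
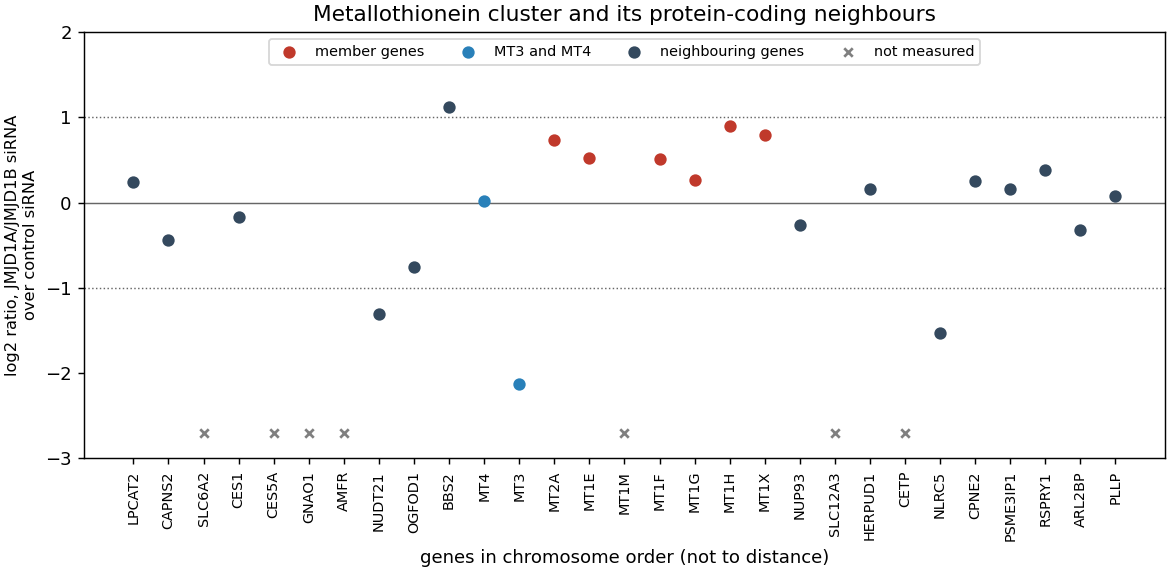
Log2 ratio of JMJD1A/JMJD1B siRNA over control siRNA for genes in chromosome order, equally spaced, with member genes in red, MT3 and MT4 in blue, neighbouring genes in dark grey, crosses at the bottom for genes that were not measured and dotted lines at 2-fold. The 6 measured member genes lie between 0.27 and 0.90, next to neighbours on both sides of 0.

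Markers of the labelled cell type passed the filter, some with signals near it. All 10 listed epithelial markers were measured, and 8 of them lay above 0 like the metallothioneins, with a median log2 ratio of 0.41, or -0.20 with the arrays level on the hybridization controls. The other 2 lay below 0. KRT20, a keratin gene, read 154 on the JMJD1A/JMJD1B siRNA array and 307 on the control siRNA array (log2 ratio -0.99). CDX2 read 78.2 on the JMJD1A/JMJD1B siRNA array and 108 on the control siRNA array (log2 ratio -0.46). Of the 10 epithelial markers 3 were at least 2-fold higher and none 2-fold lower, against 8.91% and 8.53% of all measured genes. The tight junction gene CLDN4 read 3726 on the JMJD1A/JMJD1B siRNA array and 1445 on the control siRNA array (log2 ratio 1.37). The keratin gene KRT19 read 38953 on the JMJD1A/JMJD1B siRNA array and 16309 on the control siRNA array (log2 ratio 1.26). CDH1, the gene of E-cadherin, read 10081 on the JMJD1A/JMJD1B siRNA array and 4669.6 on the control siRNA array (log2 ratio 1.11). Level on the hybridization controls these 3 stood at 0.76, 0.65 and 0.50. After loess CLDN4 stood at 1.39, while KRT19 at 0.86 and CDH1 at 0.95 fell under 2-fold. Quantile normalization gave 1.41 for CLDN4, 0.77 for KRT19 and 0.99 for CDH1. EPCAM, an epithelial adhesion molecule, read 19809 on the JMJD1A/JMJD1B siRNA array and 13794 on the control siRNA array (log2 ratio 0.52). The part of such a shift in the metallothionein values was not tested. Of the listed markers of other cells, 3 of 6 for leukocytes, 2 of 6 for fibroblasts and 1 of 5 for endothelium passed the filter. None of these differed 2-fold, and the largest log2 ratios were 0.57 for CSF1R among leukocyte, 0.96 for COL1A1 among fibroblast and 0.44 for PECAM1 among endothelial markers. The pan-leukocyte gene PTPRC read 12.4 on the JMJD1A/JMJD1B siRNA array and 8.22 on the control siRNA array. The median signal over all probe sets was 55.4 on the JMJD1A/JMJD1B siRNA array and 52.2 on the control siRNA array. In a culture, fewer cells that make a transcript and less transcript per cell cannot be told apart.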

How the data were processed

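Total RNA (0.5 ug per array, per the labels' protocols) from 2 cultures was measured on single-channel oligonucleotide arrays. The authors deposited 1 linear signal intensity per probe set and array, which came from MAS5 according to the submitters' processing notes. Its version and settings are not given in the sources used here. With the outer 2% of values at either end left out, both arrays had a mean signal of 499.9. Intensities were taken to log2 with no pseudocount. Symbols came from the platform annotation, and all 11 member identifiers matched the RefSeq gene table, as did 41037 of 41091 single-symbol probe sets. MT probe sets were matched by whole symbol. Where one of a gene's signals lay under the filter, a bound was computed with it raised to the filter. No test was run, with 1 array per group, whose number limits the precision. The text names every member probe set, KDM3A, KDM3B, MTF1, SLC30A1, the other metallothionein genes, and up to 4 genes per list with the largest change among those at least 2-fold changed, and in lists with none of these the gene that differed most. NUP93, EPCAM, KRT20, CDX2 and PTPRC were named outside this rule after their values were seen. Members and lists were chosen with earlier results of these data known. Alternatives were 4 scalings, a pseudocount of 32, 3 filters, other choices of probe sets and fold thresholds of 1.5 and 3. The calculation was tested on simulated data. Python 3.11.15, numpy 2.4.6, pandas 2.3.3, statsmodels 0.14.6 (loess span 0.3) and matplotlib 3.10.9 were used.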

Additional observations from a re-analysis of the deposited data

Results flagged for a closer look

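Outside the gene comparison, each of the 18 hybridization control probe sets had a higher signal in the JMJD1A/JMJD1B siRNA sample than in the control siRNA sample. Their log2 ratios ran between 0.40 and 0.71, with a median of 0.61. Of the 9 measured metallothionein log2 ratios, 4 exceeded that median and 5 did not. Several control probe sets share each of the added transcripts bioB, bioC, bioD and cre and are not independent.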

How the results depend on the processing

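With the arrays level on the hybridization controls, the median log2 ratio was -0.07 for the metallothionein probe sets, -0.64 for the zinc, -0.57 for the copper, -0.65 for the neighbouring, -1.42 for the metal and proteotoxic stress and -0.09 for the glucocorticoid list, since that scaling lowers every ratio by 0.61. Under the other 3 scalings the metallothionein median lay between 0.31 and 0.45, with all 9 probe sets above 0. With no signal filter 1 member probe set, 210472_at of MT1G, was at least 2-fold lower. Matching symbols as part of a longer name added 13 probe sets, 11 of them of KMT2A, with 1 at least 2-fold higher (MT1HL1) and 2 at least 2-fold lower. At 1.5-fold 4 member probe sets were higher, and at 3-fold none. Leaving out _x_at probe sets left no measured member, so no value could be given. Without _x_at and _s_at probe sets the glucocorticoid median was 1.40, over 3 genes in place of 7, SLC39A3 stood at 0.31 and HSPH1 at -2.44. With probe sets of a gene averaged, NUDT21 stood at 0.16, SLC39A3 at -0.59 and HSPH1 at -1.93. Of 378 alternative values 330 moved by less than the probe-set SD of 0.54 or, for counts, by less than 1.5 times. Another 46 moved further and 2 reversed, and 20 of the 378 changed sign. Many of the 330 could not move, since a change of filter leaves the log2 ratio of a gene's brightest probe set as it was. The choice of single-symbol probe sets likewise left the members unchanged. The 330 are therefore no measure of robustness. No paired analysis was possible because each group held 1 array.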
